A study of Mus musculus with 12 samples.

Results

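Interferon response genes are the genes that cells switch on when an interferon, a secreted antiviral protein, binds its receptor. The set described here holds 45 of them, listed by name rather than by a threshold on measured values. Of these, 41 were measured by a probe set that the array's annotation gives to them alone, out of 22180 named genes on the array. Where a gene had several such probe sets, the one with the highest 12-array mean was used. Gbp2, Oas1a and Dtx3l lay only on probe sets annotated to several genes, and no probe set is named for Ifi44 in the table used here, so these 4 were not analysed here.

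RNA came from MLE12 cells, derived from mouse distal lung epithelium by means of a viral oncogene (the SV40 large T antigen), and was measured on 12 Affymetrix arrays in 4 groups of 3. The groups were cells given an shRNA against the long noncoding RNA NANCI, cells given a scrambled shRNA beside it, cells given an shRNA against the noncoding RNA LL34, and cells given a scrambled shRNA beside that one. All 4 groups carried a lentivirus, a pLKO.1 construct packaged in HEK-293T, a line of human embryonic kidney origin, so no group was free of virus. Infection at 60% confluency lasted 12 hours, collection followed 65 hours of subculture, and 100 ng of total RNA per array was copied from a poly(T) primer. This is 1 transformed cell line and not lung tissue. The labels call the replicates biological but do not say whether each came from its own infection, so a p-value here speaks only to variation among arrays, which may be technical.

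As background, type I and type III interferons signal through receptor-bound kinases of the Jak family to Stat2, which acts with Irf9 in the complex ISGF3. This complex binds the interferon-stimulated response element in the promoters of its targets. The targets include sensors of foreign RNA and DNA, enzymes that degrade or block viral RNA, and brakes such as Usp18. Many targets also have a low level of expression without any added interferon, which rests on the same factors. Lung epithelium is among the first tissues to meet inhaled viruses and makes and answers both interferon types.

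Levels are log2 signals, on which a step of 1 is a doubling, and a level of one gene is not set against that of another. Medians over all probe sets were 6.84 to 6.88 on the 6 arrays of the NANCI set and 6.54 to 6.61 on those of the LL34 set, and replicates correlated at 0.986 or higher. The probe set of Sfta3-ps, the gene listed with the synonym Nanci, was at 13.3% of its scrambled level in NANCI shRNA cells and at 62.6% in LL34 shRNA cells. The RNA that the LL34 shRNA targets was not analysed here. The mean over 7 lung epithelial markers was 8.88 in NANCI shRNA cells and 9.35 in their scrambled cells, and 9.15 in LL34 shRNA cells and 9.31 in theirs. Of the 7, 3 fell after the NANCI shRNA (against 13.6% of all named genes). After the LL34 shRNA 3 fell and 2 rose (against 10.3% and 9.77%). The 5 LL34 calls were 1 with the scrambled arrays pooled, 2 with the set fitted alone or without LL34_shRNA replicate 1 or 3, and 3 without LL34_control replicate 2. Cdh1 (E-cadherin) and Nkx2-1 (the lung transcription factor) fell by 1.56 and 1.00 after the NANCI shRNA, Cdh1 by 1.03 over the mean of all its probe sets. Krt8 fell by 0.43 after the NANCI shRNA and by 0.67 after the LL34 shRNA. Also after the LL34 shRNA, Nkx2-1 fell by 0.27 and Sftpc by 0.62, while Sftpb rose by 0.62 and Epcam by 0.33. Sftpb and Sftpc measured −0.25 and −0.40 after the NANCI shRNA and did not pass. Epcam lay between 6.31 and 6.64 in the group means and Krt18 between 6.44 and 6.83, near the mean of the median probe set, 6.72. The mean over 8 leukocyte markers was 6.52 in NANCI shRNA cells and 6.42 in their scrambled cells, and 5.89 in LL34 shRNA cells and 6.02 in theirs. Ptprc, which defines leukocytes, lay between 5.07 and 5.46. Of the 8, 1 rose after the NANCI shRNA (against 13.2% of all named genes), Cd68 by 0.88, and none passed after the LL34 shRNA. Of 6 fibroblast markers with a mean of 7.50 in NANCI shRNA cells and 7.67 in their scrambled cells (7.37 and 7.43 in the LL34 set), Dcn fell by 0.91 after the NANCI shRNA. The part of these markers in the results below was not tested. In such bulk RNA, fewer cells of a kind and less RNA per cell cannot be told apart.

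The response element is what many of these genes share in their promoters, and it is shown because the genes that carry it behaved differently from each other. RefSeq promoters of assembly GRCm38.p6, from 250 bases before to 50 after the gene start, were at hand for 29 of the 41 genes. The core GAAANNGAAA, searched on both strands, occurred in 17 of the 29 (58.6%), against 1079 of 27025 genes in the whole promoter table (3.99%). The Stat site TTCNNNGAA, which reads the same on both strands and can overlap the response element, occurred in 8 of 29 (27.6%), against 9.55% of all genes. In the stretches below, written 5′ to 3′ along the gene's own strand, capitals mark the response element cores, which read TTTC where the core lies on the other strand. The coordinates are chr19:34640755-34640843 (plus strand) for Ifit1, chr19:34583343-34583446 (plus) for Ifit3, chr5:120887614-120887661 (minus) for Oas1g, chr5:120777695-120777764 (minus) for Oas3, chr3:142559969-142560043 (plus) for Gbp3, chr3:142530253-142530322 (plus) for Gbp7, chr4:156200845-156200926 (minus) for Isg15 and chr10:128270248-128270315 (plus) for Stat2. The first 6 are 3 pairs of relatives that lie near each other, and Isg15 and Stat2 are a target and a part of ISGF3.
Ifit1: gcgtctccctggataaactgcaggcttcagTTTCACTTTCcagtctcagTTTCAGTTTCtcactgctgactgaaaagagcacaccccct
Ifit3: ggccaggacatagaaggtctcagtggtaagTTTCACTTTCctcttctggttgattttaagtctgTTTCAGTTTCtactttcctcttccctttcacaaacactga
Oas1g: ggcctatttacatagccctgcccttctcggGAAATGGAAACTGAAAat
Oas3: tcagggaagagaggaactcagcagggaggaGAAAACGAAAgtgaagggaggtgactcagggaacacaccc
Gbp3: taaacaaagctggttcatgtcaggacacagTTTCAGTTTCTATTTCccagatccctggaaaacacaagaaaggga
Gbp7: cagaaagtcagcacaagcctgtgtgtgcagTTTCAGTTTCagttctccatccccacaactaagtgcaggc
Isg15: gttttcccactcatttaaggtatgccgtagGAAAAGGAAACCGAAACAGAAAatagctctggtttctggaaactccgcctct
Stat2: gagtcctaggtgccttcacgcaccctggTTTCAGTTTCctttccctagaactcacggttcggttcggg

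Promoters with the core were found among genes that fell and among genes that did not. They numbered 8 of the 14 genes in the table that fell after the NANCI shRNA, 3 of the 12 that fell after the LL34 shRNA, and 8 of the 10 that fell after neither. A match is only a run of letters, and a promoter without one says only that these letters are not in that window. Ifit1 and Ifit3, for example, both hold 2 cores before their starts, and their changes are set side by side in the account of the IFIT genes.

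After each shRNA, many interferon response genes fell and almost none rose. In NANCI shRNA cells 22 of 41 were lower than in the scrambled cells of the same set, 1 was higher and 18 did not pass, by limma's moderated test with Benjamini-Hochberg adjustment over all 41345 probe sets and a threshold of 0.05. The 22 are 53.7% of the 41, where 13.6% of all named genes were called lower, and the 1 higher gene is 2.44%, where 13.2% were called higher. In LL34 shRNA cells 17 of 41 were lower (41.5%, against 10.3% of all named genes) and 0 were higher (against 9.77%), with 24 not passing. Of those 24, 8 had an unadjusted p under 0.05. Median changes were −0.42 after the NANCI shRNA and −0.33 after the LL34 shRNA, where the medians over all named genes were 0.0042 and −0.02.

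The single arrays show the same split. All 3 NANCI shRNA arrays lay below all 3 scrambled arrays for 26 of 41 genes (against 20% of all named genes) and above them for 3 (against 20.5%). All 3 LL34 shRNA arrays lay below their scrambled arrays for 23 genes (against 17.2%) and above them for 0 (against 18.1%). Averaged over the 41 genes, the arrays stood at 8.33, 8.17 and 8.27 in NANCI shRNA cells, against 8.81, 8.60 and 8.71 in their scrambled cells. The LL34 shRNA arrays averaged 7.93, 7.88 and 7.81, against 8.36, 8.25 and 8.09 in their scrambled cells. In neither set did the averages of the 2 groups overlap, while averages over all named genes were 7.64 to 7.67 in the NANCI set, 7.41 to 7.44 in the other. Single arrays also moved as a whole within their group: replicate 2 had the lowest of its group's 3 signals for 29 of 41 genes in NANCI shRNA cells and for 30 in their scrambled cells, and replicate 3 for 26 in LL34 shRNA cells and for 33 in theirs. Replicate 1 had the highest for 25 genes in NANCI shRNA cells and for 28 in their scrambled cells, and for 18 in LL34 shRNA cells and for 30 in theirs. Same-numbered arrays of a set were thus often low or high together in these genes, and what lies behind that was not tested. These positions were not counted over all named genes, so they cannot be called particular to the 41. The 6 scrambled arrays were also pooled as a single control, so that the gap between sets enters the comparison. Then 10 genes passed, 8 lower (against 8.07% of all named genes) and 2 higher (against 11.4%), and 16 of the NANCI calls ended. The changes of those 16 were then −0.77 for Irf7, −0.56 for Xaf1, −0.55 for Usp18, −0.46 for Rtp4, −0.39 for Ifi35, −0.36 for Ifit1, −0.35 for Iigp1, −0.33 for both Oasl2 and Cmpk2, −0.28 for Stat2, −0.25 for Isg15, −0.11 for Dhx58, −0.06 for Mx2, −0.05 for Oas1b, 0.14 for Oas2 and 0.20 for Oas1g (adjusted p from 0.0531 to 0.932).

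**Figure D1:**
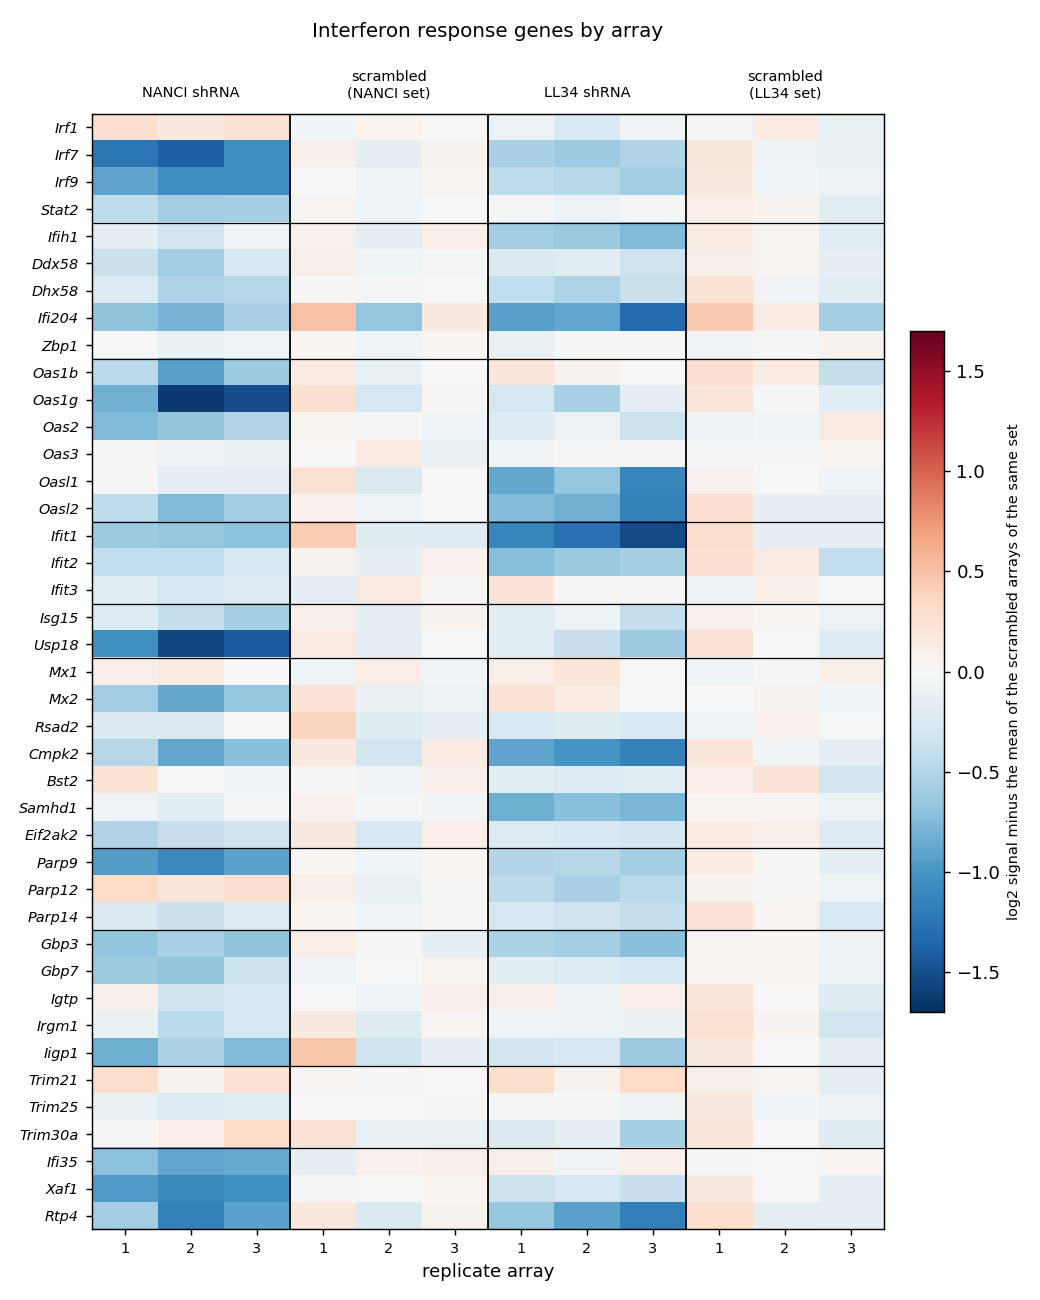
Log2 signal of each of the 41 genes (rows, grouped by role) on each of the 12 arrays (columns, numbered by replicate), minus the mean of the 3 scrambled arrays of the same set. Blue is lower and red higher than that mean: the shRNA columns hold most of the deep blue, from −1.62 at the lowest, and the scrambled columns stay paler.

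Of the 4 transcription factors of the response, 3 fell after the NANCI shRNA and 2 after the LL34 shRNA (against 13.6% and 10.3% of all named genes). Groups by role, here and below, are small, and their counts were not tested against each other. Irf7, the factor that drives interferon genes themselves, measured 7.90, 7.74 and 8.07 on the NANCI shRNA arrays, against 9.21, 8.97 and 9.18 on their scrambled arrays. It measured 7.68, 7.61 and 7.72 on the LL34 shRNA arrays, against 8.42, 8.14 and 8.12 on theirs. The arrays did not overlap in either set, and Irf7 fell by 1.22 (SE 0.106, adjusted p = 1.24e-05) after the NANCI shRNA and by 0.56 (SE 0.106, adjusted p = 0.00407) after the LL34 shRNA. Those changes left 42.9% and 68.0% of the scrambled level.

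Irf9, the subunit of ISGF3 that contacts DNA, followed the same order. Its signals were 9.43, 9.27 and 9.27 on the NANCI shRNA arrays, against 10.34, 10.27 and 10.37 on their scrambled arrays. The LL34 shRNA arrays gave 9.33, 9.29 and 9.16, against 9.91, 9.71 and 9.66 on theirs. Every shRNA array again lay below every scrambled array of its set, with falls of 1.01 (SE 0.0789, adjusted p = 6.81e-06) and 0.50 (SE 0.0789, adjusted p = 0.00138).

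Stat2, the Stat protein that pairs with Irf9 and whose promoter holds 1 core, fell only in the comparison with the NANCI shRNA, and its 2 changes differed (difference −0.47, adjusted p = 0.0121). It measured 9.25, 9.08 and 9.11 on the NANCI shRNA arrays, against 9.72, 9.61 and 9.68 on their scrambled arrays, a change of −0.53 (SE 0.0793, adjusted p = 0.000583). After the LL34 shRNA the arrays gave 9.15, 9.09 and 9.15, inside the range of 9.30, 9.25 and 9.01 on theirs (−0.06, adjusted p = 0.74). Irf1, an activator that interferon gamma induces strongly, went the other way. Its signals were 9.46, 9.35 and 9.43 on the NANCI shRNA arrays, above the 9.14, 9.23 and 9.19 of their scrambled arrays, yet the change of 0.22 did not pass (adjusted p = 0.0626). They were 8.99, 8.83 and 9.02 on the LL34 shRNA arrays, which overlap the 9.07, 9.22 and 8.98 of theirs (−0.14, adjusted p = 0.279).

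**Figure D2:**
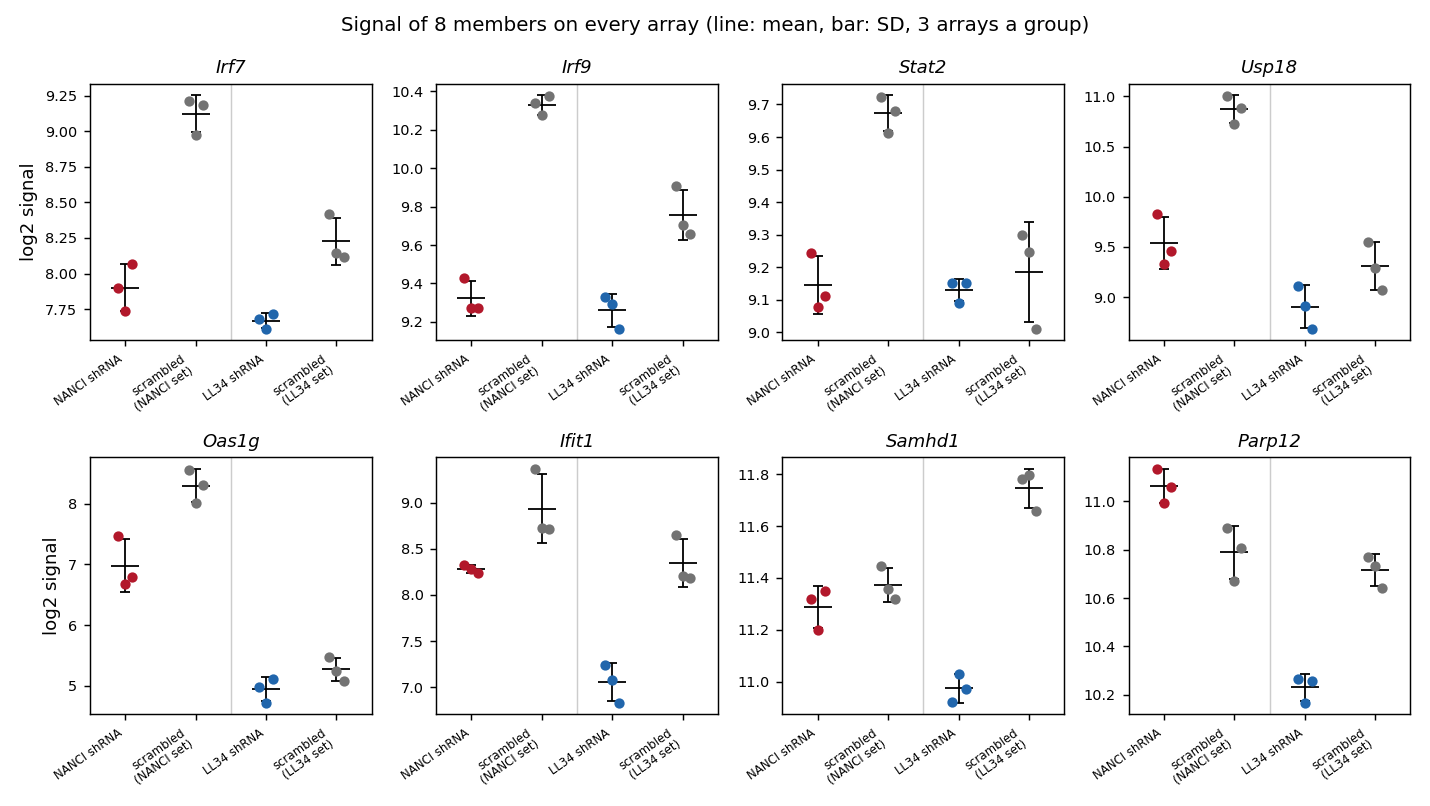
Log2 signal of 8 interferon response genes on every array: points are arrays, the line is the mean and the bar the SD of 3 arrays, with each shRNA group left of its scrambled group and its own y axis for each gene. Irf7 and Irf9 lie below their scrambled arrays in both sets, Stat2 and Usp18 clearly so in the NANCI set, and Ifit1, Samhd1 and Parp12 in the LL34 set, where Parp12 is above its scrambled arrays in the NANCI set.

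Sensors of foreign nucleic acid were lower in part after each shRNA. The counts were 2 of 5 after the NANCI shRNA and 3 of 5 after the LL34 shRNA (against 13.6% and 10.3% of all named genes). Ifih1 (MDA5), which binds long double-stranded RNA, measured 8.88, 8.84 and 8.72 on the LL34 shRNA arrays, against 9.60, 9.53 and 9.30 on their scrambled arrays. It fell by 0.66 there (SE 0.0981, adjusted p = 0.000871), with no overlap. On the NANCI shRNA arrays it measured 8.99, 8.85 and 9.10, overlapping the 9.23, 9.01 and 9.24 of their scrambled arrays (−0.18, adjusted p = 0.28). Ddx58 (RIG-I), the sensor of short RNA with a 5′ triphosphate, fell by 0.42 after the NANCI shRNA (adjusted p = 0.00751) and measured −0.26 after the LL34 shRNA (adjusted p = 0.0928).

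Dhx58 (LGP2), the relative of both that tunes their signalling, was 0.42 lower after the NANCI shRNA (adjusted p = 0.0161) and 0.44 lower after the LL34 shRNA (adjusted p = 0.0159). The first call ended without NANCI_shRNA replicate 2 or 3 or NANCI_control replicate 1 (adjusted p from 0.0537 to 0.0675). It also ended with the scrambled arrays pooled (−0.11, adjusted p = 0.697). The second ended without LL34_shRNA replicate 2 (−0.40, adjusted p = 0.0623) and with the LL34 set fitted alone. Ifi204, a mouse DNA sensor of the p200 family, was dim and variable. It measured −1.04 after the LL34 shRNA (SE 0.294, adjusted p = 0.0339), a call that ended without any 1 of the 3 LL34_shRNA arrays or LL34_control replicates 1 or 2 (adjusted p from 0.0617 to 0.127) and in the fit of that set alone. After the NANCI shRNA it measured −0.67 (adjusted p = 0.159), where the scrambled arrays alone spread over 6.93, 5.77 and 6.58. Zbp1, a sensor of Z-form nucleic acid that can start necroptosis, measured −0.07 and −0.06 and passed in neither.

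Active enzymes of the OAS family make the messenger 2′-5′ oligoadenylate, which activates the nuclease RNase L. Not every member counted here need have that activity, which was not measured. After the NANCI shRNA 4 of 6 members fell, and after the LL34 shRNA 2 of 6 (against 13.6% and 10.3% of all named genes). Oas1g measured 7.48, 6.68 and 6.79 on the NANCI shRNA arrays, against 8.57, 8.02 and 8.31 on their scrambled arrays, a fall of 1.32 (SE 0.209, adjusted p = 0.000861). In the LL34 set the shRNA arrays gave 4.99, 4.72 and 5.12, overlapping 5.47, 5.25 and 5.08 on theirs (−0.33, adjusted p = 0.383). The scrambled levels of the 2 sets thus stood apart by more than either change, which is taken up below with the scrambled cells.

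Oas2, a larger enzyme of the family, measured 6.91, 6.99 and 7.17 on the NANCI shRNA arrays, against 7.71, 7.68 and 7.59 on their scrambled arrays. It fell by 0.64 there (SE 0.0926, adjusted p = 0.000464). The LL34 shRNA arrays gave 5.88, 6.004 and 5.74, against 6.01, 6.05 and 6.24 on theirs, just without overlap and not past the threshold (−0.22, adjusted p = 0.142). Oas1b, which in mice governs resistance to flaviviruses, fell by 0.66 after the NANCI shRNA (adjusted p = 0.0151) and measured 0.09 after the LL34 shRNA (adjusted p = 0.811). That fall did not pass without NANCI_shRNA replicate 2 or NANCI_control replicate 1 (adjusted p from 0.0611 to 0.0651). With the scrambled arrays pooled, Oas1g and Oas2 turned to 0.20 and 0.14 after the NANCI shRNA (adjusted p = 0.872 and 0.817). Oas1b then measured −0.05 (adjusted p = 0.932).

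Oasl1 and Oasl2, the OAS-like members, led the LL34 changes of the family. Oasl1, which in mice holds back the translation of Irf7, measured 7.43, 7.64 and 7.18 on the LL34 shRNA arrays, against 8.37, 8.30 and 8.23 on their scrambled arrays. It fell by 0.88 (SE 0.132, adjusted p = 0.000959). On the NANCI shRNA arrays it was at 8.51, 8.32 and 8.33, overlapping 8.73, 8.25 and 8.48 on theirs (−0.10, adjusted p = 0.725). Oasl2, a synthetase with ubiquitin-like domains, fell after both shRNAs. It measured 9.99, 9.68 and 9.84 on the NANCI shRNA arrays, against 10.50, 10.35 and 10.43 on their scrambled arrays (−0.59, SE 0.137, adjusted p = 0.00938). After the LL34 shRNA the arrays gave 9.18, 9.09 and 8.76, against 10.19, 9.77 and 9.77 on theirs (−0.90, SE 0.137, adjusted p = 0.00101). Oas3 measured −0.08 and −0.04 and passed in neither, although its promoter, like that of Oas1g, holds a core; 2 of its LL34 signals repeat another exactly. Genes of the Oas1 cluster are close relatives, so their probes may share signal.

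The IFIT genes encode proteins that bind foreign RNA ends. Of 3, 1 fell after the NANCI shRNA and 2 after the LL34 shRNA (against 13.6% and 10.3% of all named genes). The difference between the changes was called for 0 of the 3 by limma (adjusted p from 0.106 to 0.494; Ifit1 and Ifit3 had an unadjusted p under 0.05). Ifit1, which binds RNA with an unmethylated cap, measured 7.24, 7.08 and 6.83 on the LL34 shRNA arrays, against 8.65, 8.21 and 8.18 on their scrambled arrays. It fell by 1.30 (SE 0.181, adjusted p = 0.000612) to 40.7% of the scrambled level. On the NANCI shRNA arrays it measured 8.33, 8.29 and 8.24, against 9.37, 8.73 and 8.72 on theirs, a fall of 0.65 (SE 0.181, adjusted p = 0.0255). The NANCI call ended without any 1 NANCI_shRNA array or without NANCI_control replicate 1, where the change was −0.44 (adjusted p from 0.0615 to 0.0782 over these 4). It also ended with the scrambled arrays pooled (−0.36, adjusted p = 0.275).

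Ifit2 fell by 0.64 after the LL34 shRNA (adjusted p = 0.0126) and measured −0.38 after the NANCI shRNA (adjusted p = 0.111). The LL34 call ended in the set fitted alone, with the scrambled arrays pooled, and without LL34_shRNA replicate 1 or LL34_control replicate 2 (adjusted p = 0.0507 and 0.0522). Ifit3, whose promoter also holds 2 cores, measured 7.63, 7.43 and 7.43 on the LL34 shRNA arrays, overlapping 7.32, 7.50 and 7.42 on their scrambled arrays (0.09, adjusted p = 0.617). On the NANCI shRNA arrays Ifit3 was at 7.44, 7.35 and 7.42, below 7.48, 7.78 and 7.66 on theirs, a change of −0.24 that did not pass (adjusted p = 0.0904).

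Isg15 is a ubiquitin-like modifier, and Usp18 is the protease that removes it and also silences the interferon receptor. Both fell after the NANCI shRNA (against 13.6% of all named genes). Usp18 measured 9.83, 9.33 and 9.46 on the NANCI shRNA arrays, against 11.01, 10.73 and 10.88 on their scrambled arrays. Its fall of 1.33 (SE 0.159, adjusted p = 0.000114) was the largest among the 41 in that comparison and left 39.7% of the scrambled level. In the LL34 set the shRNA arrays gave 9.11, 8.91 and 8.68, overlapping 9.55, 9.29 and 9.07 on theirs (−0.40, adjusted p = 0.122). Isg15, with 3 overlapping cores in its promoter, fell by 0.40 after the NANCI shRNA (adjusted p = 0.0212) and measured −0.23 after the LL34 shRNA (adjusted p = 0.211). Its NANCI call ended without NANCI_shRNA replicate 2 or 3 or NANCI_control replicate 1 or 3 (adjusted p from 0.0594 to 0.0855). It also ended with the scrambled arrays pooled (−0.25, adjusted p = 0.2).

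Of the 7 other antiviral effectors, 3 fell after the NANCI shRNA and 2 after the LL34 shRNA (against 13.6% and 10.3% of all named genes). Cmpk2, a mitochondrial nucleotide kinase, was in both groups. It measured 8.82, 8.43 and 8.60 on the NANCI shRNA arrays, against 9.48, 8.998 and 9.45 on their scrambled arrays (−0.69, SE 0.148, adjusted p = 0.00593). The LL34 shRNA arrays gave 7.69, 7.59 and 7.43, against 8.79, 8.54 and 8.43 on theirs (−1.01, SE 0.148, adjusted p = 0.000813). Rsad2 (viperin), which makes a chain-ending nucleotide against viral polymerases, measured −0.17 and −0.24 and passed in neither.

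Samhd1, the hydrolase of deoxynucleotides that limits retroviruses, had the smallest p of the 41 after the LL34 shRNA. It measured 10.92, 11.03 and 10.97 on the LL34 shRNA arrays, against 11.78, 11.80 and 11.66 on their scrambled arrays, a fall of 0.77 (SE 0.0652, adjusted p = 2.25e-05). On the NANCI shRNA arrays it measured 11.32, 11.20 and 11.35, overlapping 11.45, 11.36 and 11.32 on theirs (−0.08, adjusted p = 0.48). Mx2, a cytoplasmic antiviral GTPase in mice, measured 6.30, 6.02 and 6.23 on the NANCI shRNA arrays, against 7.11, 6.76 and 6.79 on their scrambled arrays, a fall of 0.70 (SE 0.106, adjusted p = 0.000599). After the LL34 shRNA the arrays gave 5.86, 5.74 and 5.62, overlapping 5.61, 5.67 and 5.56 on theirs (0.13, adjusted p = 0.511). These LL34 signals lie below the array medians of 6.54 to 6.61, as do those of Oas1g and Oas2, and a fall from so low a signal may not be measurable.

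Mx1, the nuclear GTPase that blocks influenza virus in mice, measured 0.08 and 0.10 and passed in neither, and neither did Bst2 (tetherin, which holds budding virus at the membrane), at 0.06 and −0.20. Eif2ak2 (PKR), the RNA-activated kinase that stops translation, fell by 0.41 after the NANCI shRNA (adjusted p = 0.0316) and measured −0.28 after the LL34 shRNA (adjusted p = 0.161). That call ended in the NANCI set fitted alone and without NANCI_shRNA replicate 1 or 2 or NANCI_control replicate 1 or 3 (adjusted p from 0.0712 to 0.124).

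The 3 ADP-ribosyltransferases all fell after the LL34 shRNA (against 10.3% of all named genes), while 1 fell and 1 rose after the NANCI shRNA (against 13.6% and 13.2%). Parp9, which works with the ubiquitin ligase Dtx3l, measured 7.79, 7.65 and 7.83 on the NANCI shRNA arrays, against 8.78, 8.67 and 8.77 on their scrambled arrays. Its fall of 0.99 (SE 0.081, adjusted p = 8.9e-06) compares with a fall of 0.52 (SE 0.081, adjusted p = 0.0012) after the LL34 shRNA, where it measured 8.42, 8.44 and 8.34, against 9.06, 8.94 and 8.76 in the scrambled cells of that set. Parp12, which adds single ADP-ribose units and restrains viral translation, was the only gene of the 41 to rise. It measured 11.13, 10.99 and 11.06 on the NANCI shRNA arrays, above the 10.89, 10.67 and 10.81 of their scrambled arrays (0.27, SE 0.0697, adjusted p = 0.0162). In the LL34 set the shRNA arrays gave 10.27, 10.17 and 10.26, below the 10.77, 10.73 and 10.64 of theirs (−0.49, SE 0.0697, adjusted p = 0.000727). The rise did not pass in the NANCI set fitted alone, nor without NANCI_shRNA replicate 1 or NANCI_control replicate 2 (adjusted p from 0.0609 to 0.0665). Parp14 measured −0.28 after the NANCI shRNA (adjusted p = 0.0865) and −0.35 after the LL34 shRNA (adjusted p = 0.0394). That call ended without any 1 of the 3 LL34_shRNA arrays, LL34_control replicate 1 or LL34_control replicate 2 (adjusted p from 0.0785 to 0.124), in the set fitted alone and with the scrambled arrays pooled.

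The interferon-inducible GTPases attack the vacuoles of intracellular pathogens. Among them 3 of 5 fell after the NANCI shRNA and 1 of 5 after the LL34 shRNA (against 13.6% and 10.3% of all named genes). Gbp3 fell in both. It measured 6.22, 6.34 and 6.21 on the NANCI shRNA arrays, against 7.01, 6.91 and 6.76 on their scrambled arrays (−0.64, SE 0.0781, adjusted p = 0.000136). The LL34 shRNA arrays gave 6.07, 6.03 and 5.89, against 6.65, 6.63 and 6.52 on theirs (−0.60, SE 0.0781, adjusted p = 0.000371). Gbp7, its neighbour with 1 core in the promoter, fell by 0.55 after the NANCI shRNA (adjusted p = 0.000558) and measured −0.23 after the LL34 shRNA (adjusted p = 0.0797). Iigp1 (Irga6), of the immunity-related GTPases, fell by 0.70 after the NANCI shRNA (adjusted p = 0.0176) and measured −0.41 after the LL34 shRNA (adjusted p = 0.178). Its call ended in the set fitted alone and without NANCI_shRNA replicate 1 or 3 (adjusted p from 0.0557 to 0.0713). It also ended with the scrambled arrays pooled (−0.35, adjusted p = 0.331). Igtp and Irgm1, 2 more of that family, measured −0.18 and −0.29 after the NANCI shRNA and 0.04 and −0.09 after the LL34 shRNA, and passed in neither.

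None of the 3 TRIM ubiquitin ligases passed after either shRNA. Trim21, the intracellular antibody receptor, measured 0.20 after the NANCI shRNA and 0.24 after the LL34 shRNA (adjusted p = 0.194 and 0.13). Trim25, which acts in the RIG-I pathway, measured −0.18 and −0.05, and Trim30a, which dampens Toll-like receptor signalling in mice, measured 0.15 and −0.33.

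The 3 remaining genes all fell after the NANCI shRNA (against 13.6% of all named genes). Xaf1, a protein that promotes apoptosis by opposing the inhibitor XIAP, measured 8.10, 7.96 and 8.01 on the NANCI shRNA arrays, against 9.02, 9.06 and 9.09 on their scrambled arrays. It had the smallest p of the 41 in that comparison (−1.03, SE 0.0779, adjusted p = 5.23e-06). After the LL34 shRNA the arrays gave 7.75, 7.82 and 7.73, against 8.28, 8.11 and 7.96 on theirs (−0.35, SE 0.0779, adjusted p = 0.0103), a call that ended with the set fitted alone (adjusted p = 0.0605) and with the scrambled arrays pooled (−0.82, adjusted p = 0.0563). Rtp4, a chaperone of receptors at the Golgi, fell by 0.89 after the NANCI shRNA (SE 0.186, adjusted p = 0.00526) and by 0.90 after the LL34 shRNA (SE 0.186, adjusted p = 0.00657).

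Ifi35, a leucine zipper protein that binds the interferon-induced protein Nmi, measured 10.75, 10.57 and 10.59 on the NANCI shRNA arrays, against 11.28, 11.52 and 11.54 on their scrambled arrays (−0.81, SE 0.081, adjusted p = 3.36e-05). In the LL34 set the shRNA arrays gave 10.69, 10.56 and 10.70, overlapping 10.58, 10.60 and 10.65 on theirs (0.04, adjusted p = 0.824). It is the only one of the 41 with another probe set of its own, which measured −0.03 and −0.11 and did not pass (adjusted p = 0.878 and 0.448). The mean of both gave −0.42 after the NANCI shRNA (adjusted p = 0.00223).

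**Figure D3:**
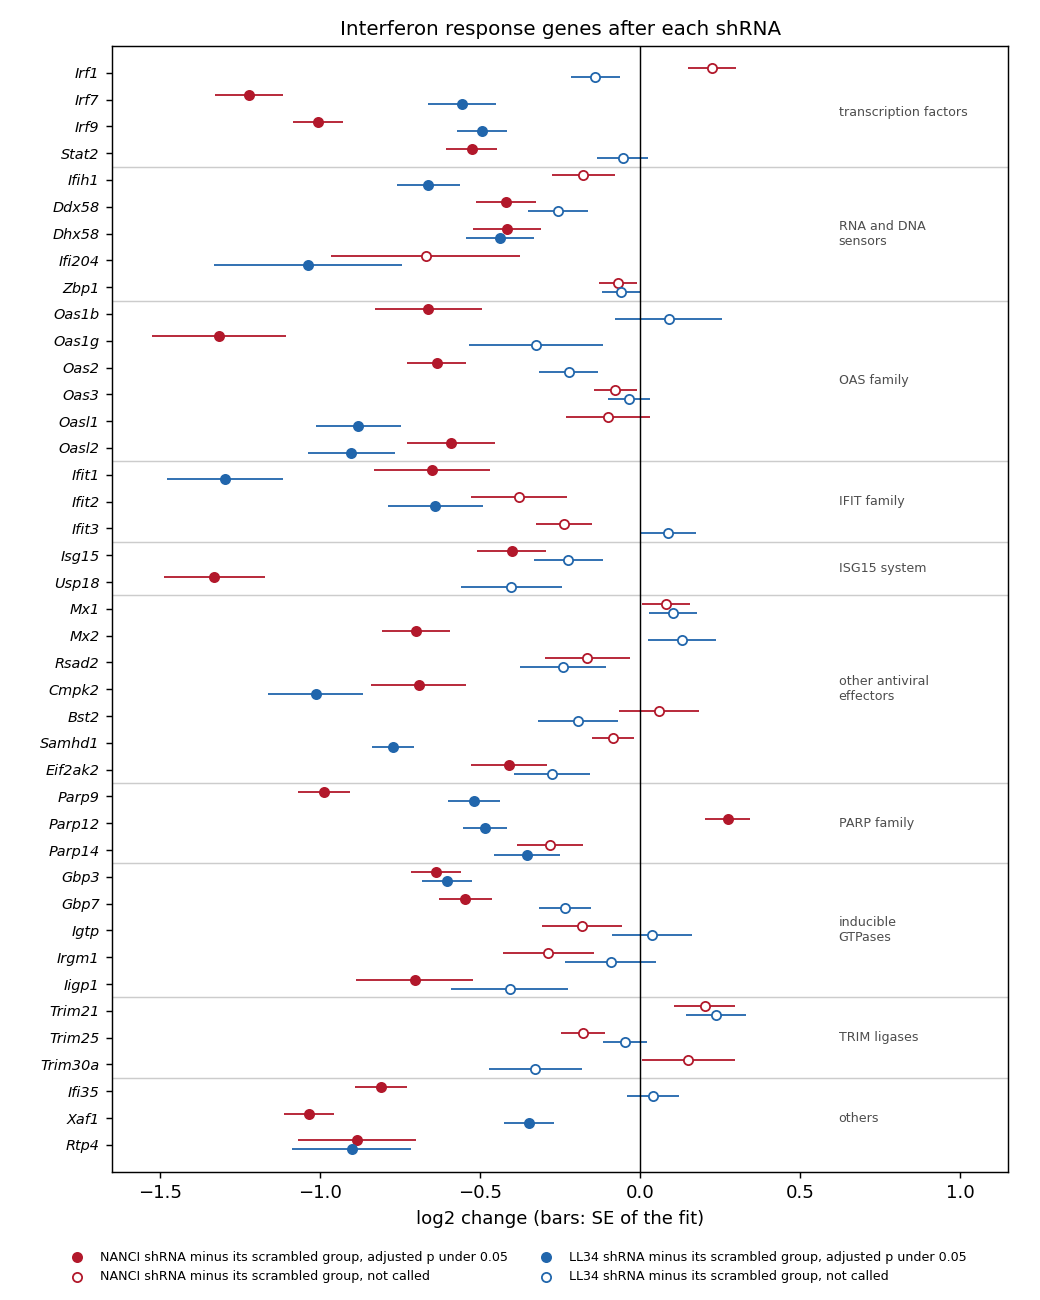
Change of each of the 41 genes on the log2 scale after the NANCI shRNA (red) and after the LL34 shRNA (blue), each minus its own scrambled group, with the SE of the fit as bars, filled where the adjusted p was under 0.05. Most points lie left of 0, from −1.33 for Usp18 to 0.27 for Parp12 in red and from −1.30 for Ifit1 to 0.24 for Trim21 in blue.

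The genes called lower after the 2 shRNAs were in part the same, and the difference between the 2 changes was tested directly. Of the 41, 10 fell after both shRNAs, 12 after the NANCI shRNA without a call after the other, and 6 after the LL34 shRNA without a call after the other. Parp12 rose after one and fell after the other, and 12 passed in neither. Such combined calls were not counted over all named genes, so these counts do not show whether the overlap is large or small. The 10 were Irf7, Irf9, Dhx58, Oasl2, Ifit1, Cmpk2, Parp9, Gbp3, Xaf1 and Rtp4. The NANCI change lay below the LL34 change for 11 genes (where 12.3% of all named genes were called so) and above it for 5 (where 12% were), and the share of 12.2% for these 5 is that of all genes. The median difference was −0.04, against 0.03 over all named genes. No control arrays are shared between the sets.

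The 5 genes with the higher NANCI change were Oasl1, Parp12, Samhd1, Ifih1 and Irf1, of which Irf1 was called after neither shRNA. By p-value Parp12 and Samhd1 came first. The NANCI change exceeded the LL34 change by 0.76 for Parp12 (SE 0.0985, adjusted p = 0.00027) and by 0.69 for Samhd1 (SE 0.0922, adjusted p = 0.000333). In the other direction the difference was −0.85 for Ifi35 (SE 0.115, adjusted p = 0.000344) and −0.69 for Xaf1 (SE 0.11, adjusted p = 0.00108). The second Ifi35 probe set gave a difference of 0.08 (adjusted p = 0.734), and the mean of both gave −0.38 (adjusted p = 0.03). For Irf7 and Irf9 the differences were −0.67 (adjusted p = 0.00875) and −0.51 (adjusted p = 0.00743), so genes that fell after both shRNAs could still differ in size. Of the 12 genes that fell only in the NANCI comparison, 7 differed by this test, and of the 6 that fell only in the LL34 comparison, 3 did. Genes picked for a call in a single comparison, on these same arrays, are more likely to differ by this test. These counts are therefore a description only. For Isg15, Ddx58, Dhx58, Gbp3 and Rtp4, among others, no difference was called. Across the 41 genes the 2 changes correlated at 0.283 (Pearson) and 0.315 (Spearman), a description over genes that are measured on the same arrays and are not independent.

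**Figure D4:**
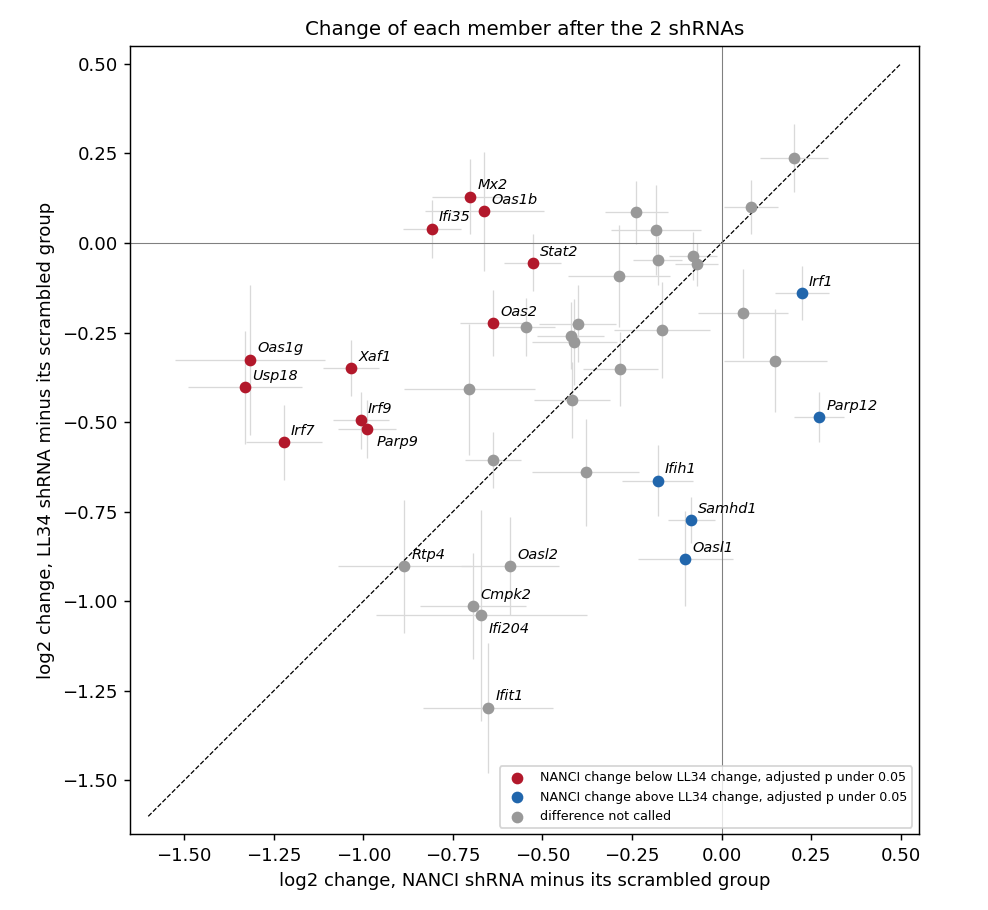
Each point is 1 of the 41 genes, placed by its log2 change after the NANCI shRNA (x axis) and after the LL34 shRNA (y axis), each minus its own scrambled group, with the SE of the fit as bars and the line of equal change dashed. Red points have a NANCI change below the LL34 change and blue points one above it (adjusted p under 0.05 for the difference): 11 genes, Usp18 and Ifi35 among them, are red and 5, Samhd1 and Parp12 among them, are blue.

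The levels of these genes also differed between the 2 groups of scrambled cells, LL34 set against NANCI set. Of 41 genes, 24 were lower in the scrambled cells of the LL34 set (58.5%, where 50.5% of all named genes were) and 4 were higher (where 9.9% were). All 3 arrays of the LL34 set lay below all 3 of the NANCI set for 24 genes (against 53.3%) and above them for 3 (against 11.3%). The median difference was −0.42, against −0.23 over all named genes. In this fit the counts are close to those of all genes, and the set and its normalization cannot be told apart from the cells. With quantile normalization over all arrays, which brought the median of all named genes to −0.02, 18 were lower and 7 higher with a median of −0.26. Of all named genes 23.7% were then lower and 20% higher. With arrays centred on their medians 16 were lower and 9 higher, with a median of −0.12. Of all named genes 16.5% were lower and 30.7% higher there, with a median of 0.07.

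The 7 lower genes named next kept their direction and call under each alternative that tested them (the filter on dim probe sets left out Oas1g, Oas2 and Mx2), with differences between −3.17 and −0.60. Oas1g measured 5.47, 5.25 and 5.08 in the scrambled cells of the LL34 set, against 8.57, 8.02 and 8.31 in those of the NANCI set, a difference of −3.03 (SE 0.209, adjusted p = 3.09e-06) that lay between −3.17 and −2.73 over the alternatives. Oas2 differed by −1.56 (SE 0.0926, adjusted p = 1.51e-06), Mx2 by −1.27 (SE 0.106, adjusted p = 7.23e-06) and Xaf1 by −0.94 (SE 0.0779, adjusted p = 7.12e-06). Usp18, Oas1b and Irf7, chosen after their values were seen, differed by −1.57, −1.23 and −0.90. The 4 genes that were higher in the scrambled cells of the LL34 set were Eif2ak2 (0.47), Ifit2 (0.40), Samhd1 (0.37) and Ifih1 (0.31). Of these, Ifit2 did not pass without any 1 of the 3 NANCI_control arrays or LL34_control replicates 1 or 2 (0.26 to 0.44, adjusted p from 0.0605 to 0.157), and Ifih1 without NANCI_control replicate 2 or LL34_control replicates 1 or 2 (0.24 to 0.29, adjusted p from 0.0616 to 0.0766).

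Genes that act before and around the response were counted by role from fixed lists. Of 21 interferon ligand genes 20 were measured. After the NANCI shRNA 0 fell and 1 rose (against 13.6% and 13.2% of all named genes). The 1 was Ifnl3, a type III interferon, which rose by 0.41 (adjusted p = 0.0173). That call ended without NANCI_shRNA replicate 1 or 2 or NANCI_control replicate 1 or 3 (adjusted p from 0.0655 to 0.0738). After the LL34 shRNA limma called 0 of the ligand genes, where 10.3% of all named genes fell and 9.77% rose. Among the others with the smallest p, Ifna2 measured 0.31 and 0.33, Ifna9 0.02 and −0.29, and Ifna11 −0.16 and 0.01, none past the threshold. The interferon alpha genes are close relatives whose probes may share signal.

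Of 9 receptor and kinase genes, 3 rose and 1 fell after the NANCI shRNA, and 5 rose and 0 fell after the LL34 shRNA, where 13.2% and 9.77% of all named genes rose. The count of 4 went down to 2 without NANCI_control replicate 3. The count of 5 went down to 2 without LL34_shRNA replicate 1 and to 3 without LL34_shRNA replicate 3 or with the set fitted alone. Ifnar2, a chain of the type I receptor, rose by 0.26 (adjusted p = 0.0155) and by 0.42 (adjusted p = 0.00133), the first not without NANCI_shRNA replicate 1 or NANCI_control replicate 3 (adjusted p from 0.0529 to 0.0647). Its partner Ifnar1 measured −0.03 after the NANCI shRNA and rose by 0.26 after the LL34 shRNA (adjusted p = 0.00726). Ifngr2, of the interferon gamma receptor, rose by 0.30 after the NANCI shRNA (adjusted p = 0.0046) and measured 0.13 after the LL34 shRNA. Jak2, the kinase of that receptor, fell by 0.53 after the NANCI shRNA (adjusted p = 0.00604) and measured 0.38 after the LL34 shRNA (adjusted p = 0.043). That LL34 call ended without any 1 of the 3 LL34_shRNA arrays or LL34_control replicates 2 or 3, with centred arrays and in the set fitted alone (adjusted p from 0.0568 to 0.128).

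The induction pathway, which links sensors to interferon genes, had 9 of 12 genes measured. After the NANCI shRNA 2 fell and 3 rose (13.6% and 13.2% of all named genes), and after the LL34 shRNA 5 fell and 1 rose (10.3% and 9.77%). The count of 5 was 2 with the scrambled arrays pooled. The count of 6 ran from 3 to 7 over the alternatives, with 3 without any 1 of the 3 LL34_shRNA arrays or LL34_control replicate 2. Ikbke, a kinase that activates interferon factors, fell by 0.84 after the LL34 shRNA (adjusted p = 7.96e-05) and measured 0.18 after the NANCI shRNA. Tlr3, the endosomal receptor of double-stranded RNA, fell by 0.71 after the LL34 shRNA (adjusted p = 0.000794) and measured 0.25 after the NANCI shRNA. Tlr7, the receptor of single-stranded RNA, fell by 1.43 after the NANCI shRNA (adjusted p = 7.42e-05) and by 0.57 after the LL34 shRNA (adjusted p = 0.0335). Its LL34 call ended without any 1 of the 3 LL34_shRNA arrays or LL34_control replicates 1 or 2 (adjusted p up to 0.101). Tbk1, the kinase related to Ikbke, rose by 0.43 after the NANCI shRNA (adjusted p = 0.000996), which ended with the scrambled arrays pooled (0.10, adjusted p = 0.712), and measured 0.08 after the LL34 shRNA.

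Among brakes of the pathway, 9 of 10 were measured. After the NANCI shRNA 1 was lower and 2 were higher (against 13.6% and 13.2% of all named genes). With the LL34 shRNA 2 were lower and 0 higher (against 10.3% and 9.77%). Socs3, a feedback inhibitor of Jak kinases, rose by 0.57 after the NANCI shRNA (adjusted p = 0.000162) and fell by 0.51 after the LL34 shRNA (adjusted p = 0.000648). Adar, the enzyme that edits double-stranded RNA and keeps it from the sensors, fell by 0.58 after the NANCI shRNA (adjusted p = 0.000174), not so with the scrambled arrays pooled (−0.36, adjusted p = 0.0893), and measured 0.19 after the LL34 shRNA. Nlrc5, a regulator of antigen presentation genes, measured −0.11 and −0.37 (adjusted p = 0.406 and 0.00695), and the phosphatase gene Ptpn11 0.21 and 0.12 (adjusted p = 0.0116 and 0.134). The Ptpn11 call after the NANCI shRNA ended with the set fitted alone and with the replicate block (adjusted p from 0.0567 to 0.0625). Of 8 further Stat and Irf factors, 5 were measured. Irf2, a relative of Irf1 that competes with it, rose by 0.27 after the NANCI shRNA (adjusted p = 0.0151), not so without NANCI_shRNA replicate 1 or NANCI_control replicate 2 (adjusted p = 0.0588 and 0.0596). Irf3, Irf8 and Stat3 passed in neither comparison, with changes between −0.12 and 0.09.

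A further list of 68 genes that interferon induces, of which 59 were measured, had 16 lower (27.1%, against 13.6% of all named genes) and 7 higher (11.9%, against 13.2%) after the NANCI shRNA. With the LL34 shRNA 16 were lower (27.1%, against 10.3%) and 2 higher (3.39%, against 9.77%). Its median changes were −0.02 and −0.15, against 0.0042 and −0.02 over all named genes, and so nearer to them than the medians of the 41. Herc6, the main ligase of Isg15 in mice, fell by 1.23 after the NANCI shRNA (adjusted p = 5.53e-07) and by 0.44 after the LL34 shRNA (adjusted p = 0.000765). Isg20, an exonuclease of RNA, fell by 1.03 (adjusted p = 3.39e-06) after the NANCI shRNA and measured −0.25 after the LL34 shRNA (adjusted p = 0.0382). That LL34 call ended without any 1 of the 3 LL34_shRNA arrays or LL34_control replicates 1 or 2 (adjusted p up to 0.154). Zc3hav1 (ZAP), which binds viral RNA rich in CpG, fell by 0.89 after the NANCI shRNA (adjusted p = 7.32e-07) and measured −0.09 after the LL34 shRNA. Tor3a, an ATPase of the endoplasmic reticulum, fell by 0.94 after the NANCI shRNA (adjusted p = 5.28e-06) and rose by 0.40 after the LL34 shRNA (adjusted p = 0.00253).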

How the data were processed

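RNA from 4 groups of 3 MLE12 cultures was hybridised to 1 array each. The authors deposited 1 log2 signal for each probe set and array. Per the submitters' processing notes the tools were oligo, RMA and limma, with versions, order and annotation version not given in the sources used here. Array medians differ between the NANCI set and the LL34 set of 6 arrays, so levels across sets are set apart by that step too. Of 41345 probe sets, 23521 carry 1 gene symbol in the platform annotation, 1814 several and 16010 none. Names were taken from the first kind alone; a gene's probe set with the highest mean was used.

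In R 4.3.3, limma 3.58.1 fitted 4 group means to the 12 arrays, leaving 8 residual degrees of freedom, and moderated variances with 2.84 prior ones. Benjamini-Hochberg adjustment covered all probe sets of a comparison, threshold 0.05. Input was handled with jsonlite 2.0.0 and the package data.table, version 1.17.8. Each shRNA group was compared with its own scrambled group; the difference of those changes and the scrambled groups (LL34 set minus NANCI set) were further comparisons. The procedure was tested on simulated data. Python 3.11.15, pandas 2.3.3 and matplotlib 3.10.9 served for promoters and figures.

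Members, lists, rules and tests were chosen with earlier results of these data known. Every gene of the 41 is named. Values of single arrays are given for the 8 with the smallest p in each knockdown, the 4 in the difference and 4 in the scrambled comparison, and for Irf1, Irf7, Irf9 and Stat2 (here also Ifit3 and some others, beside a relative). Up to 4 genes per pathway list are named by smallest p. Same-numbered replicates were not treated as pairs in the main fit, since over all probe sets their deviations from group means correlated between −0.125 and 0.045. That does not speak for the 41 genes, for which same-numbered arrays were often low or high together. With a replicate block 23 of them were called after the NANCI shRNA, 18 after the LL34 shRNA and 14 for the difference. The alternatives were other normalization and centring, array weights, the set fitted alone, a replicate block, a filter on dim probe sets, other moderation, 1 pooled control group, the mean of a gene's probe sets, and leaving out each array. Among the 41, 8 have a mean below the median probe set (6.72): Ifi204, Oas1g, Oas2, Mx1, Mx2, Gbp3, Iigp1 and Trim30a. Detection calls and scan dates were not used here. The number of arrays limits the precision.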

Additional observations from a re-analysis of the deposited data

Results flagged for a closer look

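For 16 interferon response genes the change after the NANCI shRNA differed from the change after the LL34 shRNA by a test of the difference itself (limma, Benjamini-Hochberg adjustment over all probe sets). Groups of 3 are too small for a test of single outlying arrays.

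The difference, NANCI change minus LL34 change on the log2 scale, was negative for 11. It was −0.99 for Oas1g (adjusted p = 0.0383), −0.93 for Usp18 (0.0132), −0.85 for Ifi35 (0.000344), −0.83 for Mx2 (0.0023), −0.75 for Oas1b (0.0475), −0.69 for Xaf1 (0.00108), −0.67 for Irf7 (0.00875), −0.51 for Irf9 (0.00743), −0.47 for Stat2 (0.0121), −0.47 for Parp9 (0.014) and −0.41 for Oas2 (0.0499). It was positive for Oasl1 at 0.78 (adjusted p = 0.0128), Parp12 at 0.76 (0.00027), Samhd1 at 0.69 (0.000333), Ifih1 at 0.48 (0.0315) and Irf1 at 0.36 (0.0354). Irf1 had passed in neither comparison alone.

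Of these 16, 11 passed under every alternative that tested them, where the filter on dim probe sets left out Mx2. The pooled control and the set fitted alone give no test of this difference, so neither could end such a call. The calls of Oas1b, Oas2, Oas1g, Irf1 and Ifih1 ended without 1 array: 10 single arrays for Oas1b, 9 for Oas2, 8 each for Oas1g and Irf1 and 7 for Ifih1, with adjusted p from 0.0505 to 0.117. Such arrays were found in all 4 groups. Scrambled levels in the LL34 set minus those in the NANCI set were −3.03 for Oas1g, −1.56 for Oas2, −1.27 for Mx2, −1.57 for Usp18 and −1.23 for Oas1b. They were −0.94 for Xaf1, −0.90 for Irf7, −0.83 for Ifi35, −0.57 for Irf9, −0.49 for Stat2 and 0.18 for Parp9. For the genes with a positive difference they were −0.19 for Oasl1, −0.07 for Parp12, 0.37 for Samhd1, 0.31 for Ifih1 and −0.10 for Irf1. The median over all named genes was −0.23. The part of these gaps in the differences was not tested. The LL34 signals of Oas1g, Oas2 and Mx2 lie below the array medians, where a fall may not be measurable.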

How the results depend on the processing

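Over 15 alternatives the genes called of the 41 numbered 10 to 27 after the NANCI shRNA and 13 to 21 after the LL34 shRNA; the difference had 11 to 16 (19 alternatives) and the scrambled groups 22 to 30 (12). Calls were kept under every alternative that tested the gene for 5 of 23, 12 of 17, 11 of 16 and 18 of 28. The pooled control and the set fitted alone gave no test of the difference or of the scrambled groups. All 6 scrambled arrays as 1 control group gave 10 NANCI calls, 8 lower (against 8.07% of all named genes) and 2 higher (against 11.4%). The NANCI median was then −0.27 (all named genes 0.13) and the LL34 median −0.51 (all named genes −0.14). For 11 NANCI calls it was the only alternative that ended them, and Oas1g (0.20) and Oas2 (0.14) turned there. That setting adds the set difference by construction. Leaving out 1 array gave 18 to 23 NANCI calls, 14 to 19 LL34 calls, 11 to 16 for the difference and 24 to 27 for the scrambled groups. The medians then ran from −0.48 to −0.37, from −0.42 to −0.24, from −0.14 to −0.04 and from −0.51 to −0.26, the last without LL34_control replicate 3. The scrambled median was −0.26 with quantile normalization and −0.12 with centred arrays, where Ifit3 (0.072), Parp12 (0.23), Gbp3 (0.006) and Trim25 (0.27) turned. The replicate block gave 23, 18 and 14 calls and could not be fitted to the scrambled groups. Array weights stopped before convergence. The cause of other losses was not tested.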

Other observations

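Some interferon-induced genes outside the 41, chosen after their values were seen, ran against them after the NANCI shRNA. Pml, the scaffold of nuclear bodies, rose by 0.79 (SE 0.0636, limma adjusted p = 7.92e-06) and measured −0.09 after the LL34 shRNA. Plscr1, an antiviral membrane protein, rose by 0.77 (SE 0.0618, adjusted p = 7.97e-06) and measured −0.14 after the LL34 shRNA. Ifitm3, which blocks the entry of enveloped viruses, rose by 0.44 (adjusted p = 0.00284) and fell by 0.67 after the LL34 shRNA (adjusted p = 0.000275), a difference of 1.11 (adjusted p = 6.69e-05). Ly6e, another entry factor, rose by 0.37 (adjusted p = 0.00137) and fell by 0.53 (adjusted p = 0.000197), but against all 6 scrambled arrays it measured 0.15 and −0.32 and passed in neither.

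After the LL34 shRNA, Cxcl10, a chemokine that draws T cells, fell by 0.90 (SE 0.103, adjusted p = 0.00017) and measured 0.26 after the NANCI shRNA (adjusted p = 0.112). Apol9b, an apolipoprotein L relative of mice with close copies, fell by 1.52 (SE 0.214, adjusted p = 0.000648) and measured 0.22 after the NANCI shRNA. Sting1, the adaptor of cytosolic DNA sensing, measured 0.62 after the NANCI shRNA (adjusted p = 0.00112) and −0.43 after the LL34 shRNA (adjusted p = 0.0145). The LL34 call ended with the set fitted alone and without LL34_shRNA replicate 2 or 3 (adjusted p from 0.0567 to 0.09).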
